A study of Mus musculus with 4 samples.

Results

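The genes described here are 10 genes of the pluripotency network, Pou5f1, Sox2, Nanog, Klf4, Esrrb, Zfp42, Sall4, Utf1, Dppa4 and Dppa5a, chosen by name among 30738 genes that a cluster of the array names. Their signals were compared in germ cells of E12.5 mouse gonads, sorted by magnetic beads on the surface antigen SSEA-1. All embryos, of the strain given as C57/BL6, were homozygous for a floxed Max allele and were exposed to tamoxifen at E8.5. Female and male embryos without CreERT2 are called F and M, and those with a CreERT2 transgene under the distal enhancer of Oct4, the gene now named Pou5f1, are called FC and MC. CreERT2 is a recombinase that tamoxifen activates, so FC and MC can lose Max, which encodes the partner of MYC and MGA, in the germ line. Because FC and MC alone carry CreERT2, an effect of the transgene and an effect of Max loss cannot be told apart. Each of the 4 conditions has 1 array, and the number of embryos behind an array is not given in the sources used here. Differences between arrays are therefore given with no replicate error, and a difference of 1 on the log2 scale is 2-fold.

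Pluripotency factors hold embryonic stem cells in a state from which all tissues of the embryo can arise. OCT4 (the product of Pou5f1), SOX2 and NANOG bind many of the same enhancers, their own included. Primordial germ cells of the mouse express a large part of this network while they migrate and settle in the gonad. They lose it as female germ cells enter meiosis and as male germ cells enter mitotic arrest. The comparison of FC with F and of MC with M therefore asks whether the signals of these genes differed with CreERT2 at a stage when the network is still active.

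The 4 arrays had close overall signals, with a median over all 65956 clusters of 3.91 to 4.05. Max had a log2 signal of 10.75 and 10.31 in F and FC, and 10.64 and 10.33 in M and MC. Cre excises exon V of the floxed allele, and whether the Max cluster reads that exon was not tested. These signals are thus no measure of how many cells lost Max. Of 8 germ cell markers, all were measured, and their median signal was 9.01 to 9.54 on the 4 arrays, with Dazl, an RNA-binding protein gene of germ cells, at 15.25 to 16.57. As the RNA is from sorted cells of several types, fewer cells of a type and less RNA per cell cannot be told apart in any of these values. The F array stood apart from its label in sex-linked genes. Uba1y, a Y-linked gene, was at 9.69 and 5.52 in F and FC, and 12.82 and 13.26 in M and MC. Xist, the RNA of X inactivation, was at 7.80 and 10.81 in F and FC, and 4.55 and 4.60 in M and MC. The differences FC minus F and M minus F use the F array, and MC minus M and MC minus FC do not. The part of male RNA in the F values was not tested.

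The sequences just upstream of 4 of the genes are shown because 3 of them, Pou5f1, Sox2 and Nanog, had the highest fitted CreERT2 differences of the 10 genes, and Klf4 is the one with an E-box, the site that MYC and MAX bind. RefSeq promoter windows of GRCm38.p6 matched 7 of the 10 genes. Each line below gives the 250 bases before the outermost start site, 5′ to 3′ on the strand of the gene. Capitals mark matches on either strand to an octamer core (ATGCAAA), a SOX site (CATTGT), an E-box (CACGTG), a GC box (GGGCGG) or an E2F site (GCGGGAA).
Pou5f1, chr17:35505782-35506031, plus strand: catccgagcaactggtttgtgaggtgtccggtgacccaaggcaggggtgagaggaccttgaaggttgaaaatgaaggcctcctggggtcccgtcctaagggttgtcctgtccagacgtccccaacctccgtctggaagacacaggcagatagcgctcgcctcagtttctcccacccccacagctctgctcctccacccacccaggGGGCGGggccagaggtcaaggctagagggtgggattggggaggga
Sox2, chr3:34649745-34649994, plus strand: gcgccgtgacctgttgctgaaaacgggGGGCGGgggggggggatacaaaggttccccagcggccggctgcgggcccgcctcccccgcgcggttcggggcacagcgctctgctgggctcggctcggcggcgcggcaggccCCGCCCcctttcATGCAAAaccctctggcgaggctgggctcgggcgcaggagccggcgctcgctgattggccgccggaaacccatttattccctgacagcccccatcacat
Nanog, chr6:122707239-122707488, plus strand: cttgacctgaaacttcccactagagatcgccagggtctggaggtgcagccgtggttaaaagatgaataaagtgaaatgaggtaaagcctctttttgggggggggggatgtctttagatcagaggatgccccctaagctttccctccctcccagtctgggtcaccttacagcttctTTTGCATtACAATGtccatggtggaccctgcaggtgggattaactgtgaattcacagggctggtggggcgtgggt
Klf4, chr4:55532476-55532725, minus strand: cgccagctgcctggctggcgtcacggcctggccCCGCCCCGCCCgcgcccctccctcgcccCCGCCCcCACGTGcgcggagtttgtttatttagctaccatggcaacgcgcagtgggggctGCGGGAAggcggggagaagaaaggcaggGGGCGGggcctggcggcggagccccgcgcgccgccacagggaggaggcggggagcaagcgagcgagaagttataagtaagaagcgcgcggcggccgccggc

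In the Nanog window the octamer core and the SOX site lay 1 base apart on the same strand, beginning 75 bases before the outermost start site. This spacing is that of the composite element which OCT4 and SOX2 bind together. It was found in 2 of 32851 windows, and both were overlapping windows of Nanog. An octamer core was also present in the windows of Sox2 and Zfp42, against 4.63% of all windows. A SOX site was in windows of Nanog, Esrrb and Pou5f1, against 12.6%, and the one of Pou5f1 lay before an inner start site that is not printed. The E-box was found for Klf4 alone of the 7 genes, against 7.15% of all windows, and so was the E2F site, against 4.60%. GC boxes were in windows of Klf4, Pou5f1, Sox2, Utf1 and Zfp42, against 35.7%. A match is a description of letters, and binding was not measured.

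The 10 genes differed widely in signal. Signals of different clusters depend on their probes and are not per length, so the following groups describe brightness on the array and not an order of transcript number. Dppa5a, Utf1, Nanog, Dppa4 and Sall4 had mean signals above 10, and Sox2, Pou5f1 and Zfp42 lay between 8 and 10. Klf4 and Esrrb lay below 6, at 5.60 and 4.97, close to the median of 4.50 over all genes. The median of the 10 genes was 9.75 and 10.13 in F and FC, and 9.15 and 9.29 in M and MC. Within a gene the signal varied less, and only Pou5f1, Sox2, Nanog and Sall4 had a range of 1 or more over the 4 arrays. M was the lowest array for 7 of the 10 genes and FC the highest for 6. The same counts were not made over all genes, so nothing is read from them. Of the genes of at least median signal, 59.2% were lower in M than in F.

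**Figure D1:**
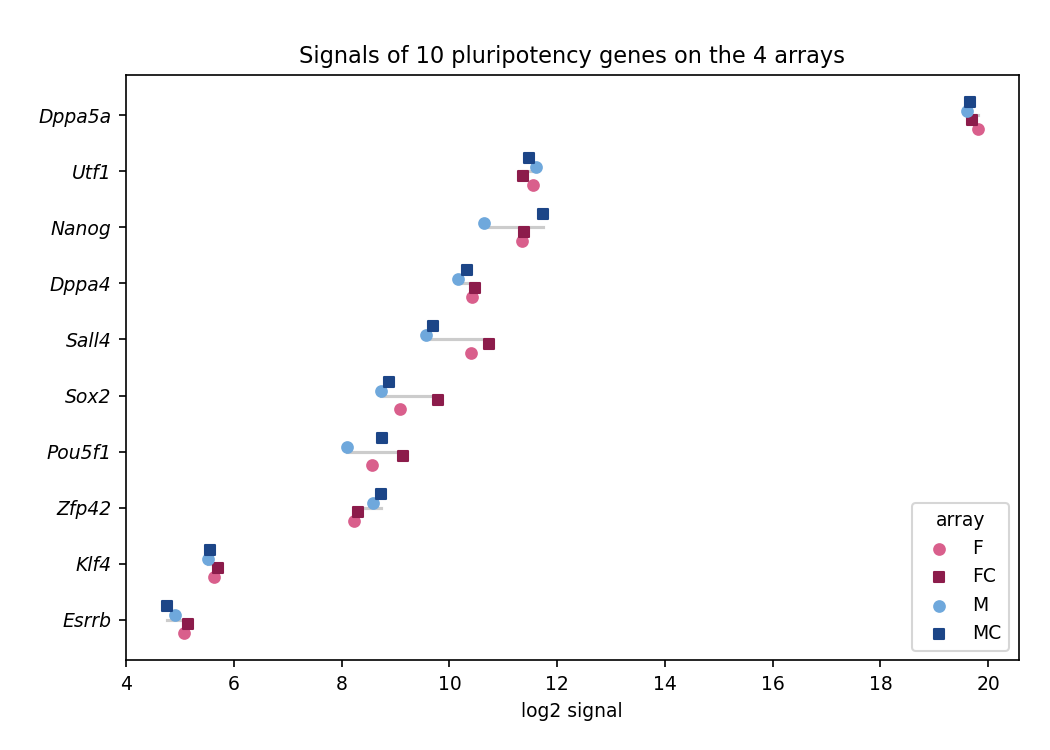
Log2 signal (horizontal axis) of each of the 10 genes on the 4 arrays, ordered by mean signal, with circles for arrays without CreERT2, squares for arrays with it, and a grey line for the range. Dppa5a sits near 20 and Klf4 and Esrrb below 6, while Pou5f1, Sox2, Nanog and Sall4 have the widest ranges, of 1.05 to 1.17.

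Of the 10 genes, 8 had a higher signal in FC than in F and 8 in MC than in M, and 7 were higher in both sexes. Over all genes 47.5% were higher in FC and 50.6% in MC, and 26.8% were higher in both sexes. The median log2 difference of the 10 genes was 0.075 for FC minus F and 0.135 for MC minus M, beside -0.01 and 0.01 over all genes. Under the other scalings these medians were 0.045 to 0.20 and 0.085 to 0.29. Over the 15374 genes of at least median signal, to which all 10 belong, the medians were -0.05 and -0.07. The male direction of Klf4 turned with median centring and that of Utf1 with cyclic loess. Most of the single differences were small. None of the 10 genes was at least 2-fold higher in FC, as were 0.547% of all genes, and Nanog alone was at least 2-fold higher in MC, as were 0.224%. None was at least 2-fold lower in FC or in MC, against 0.508% and 0.475% of all genes. At 1.5-fold, Sox2 was higher in FC (1.99% of all genes) and Pou5f1 and Nanog in MC (1.56%).

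Pou5f1 encodes OCT4, the POU factor without which neither the inner cell mass nor primordial germ cells are maintained. Its cluster, TC1700000691.mm.1, read 8.57 and 9.14 in F and FC, and 8.09 and 8.74 in M and MC. The signal with CreERT2 was above that without it in each sex, and the lowest array with CreERT2, MC, was above the highest without it, F. The differences were 0.57 in female (1.48-fold) and 0.65 in male germ cells (1.57-fold). Genes within 1 log2 unit of its mean signal had a median of -0.12 in the female comparison and of -0.13 in the male one. Of these 3210 genes, 96.1% were below Pou5f1 in the female and 98.7% in the male comparison. Fitted over both sexes with limma, the difference was 0.61 (SE 0.085, adjusted p = 0.663), the smallest unadjusted p of the 10 genes for CreERT2 but not past the threshold. An SE of this fit reflects how closely the female and male differences match, moderated over all genes. It is no measure of replicate error. Pou5f1-rs4, a cluster named for a Pou5f1-related sequence on chromosome 3, was dim, at 3.85 to 4.52. Cross-hybridization between such copies was not tested. The CreERT2 transgene uses the distal enhancer of Pou5f1 itself, and any part of the transgene in the Pou5f1 values was not tested.

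Sox2 encodes the HMG box partner of OCT4. Its signal was 9.09 and 9.78 in F and FC, and 8.73 and 8.88 in M and MC. FC was the one array that stood away from the others, and the female difference of 0.69 was larger than the male difference of 0.15. The female difference uses the F array, which stood apart from its label in sex-linked genes, and the male difference does not. Of 2713 genes of like signal, 97.5% were below Sox2 in the female and 85.2% in the male comparison. The difference between the sexes in the effect, -0.54 (male minus female), lay within the middle 95% of these genes, from -0.97 to 0.87. The common difference was 0.42 (SE 0.178, limma, adjusted p = 0.665).

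Nanog encodes the homeodomain factor that lets stem cells renew without cytokine and that germ cells need to survive in the genital ridge. It read 11.34 and 11.38 in F and FC, and 10.65 and 11.73 in M and MC. M was the low array and MC the high one, while the female arrays lay between them and close together. The male difference was 1.08 (2.11-fold) and the female difference 0.04. Among 1038 genes of like signal, 99.7% were below Nanog in the male comparison and 72.0% in the female one. The male difference exceeded the female one by 1.04, more than 98.5% of these genes, but with 1 array per condition this was not tested against replicate error. The common difference was 0.56 (SE 0.315, limma, adjusted p = 0.698). The male comparison does not use the F array. The male difference was 1.03 to 1.24 under the other scalings.

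Of the ancillary factors, Klf4, a zinc finger factor of the reprogramming set, read 5.63 and 5.70 in F and FC, and 5.52 and 5.55 in M and MC, a range of 0.18. Esrrb, an orphan nuclear receptor that sustains stem cell renewal, read 5.07 and 5.15 in F and FC, and 4.91 and 4.75 in M and MC. These signals were low, and the CreERT2 differences of both genes were within 0.16 of 0. Zfp42, also called Rex1 and a relative of Yy1, read 8.23 and 8.31 in F and FC, and 8.58 and 8.73 in M and MC. Its CreERT2 differences were 0.08 and 0.15. Sall4, a zinc finger repressor required by germ cells, read 10.40 and 10.74 in F and FC, and 9.57 and 9.69 in M and MC, with CreERT2 differences of 0.34 and 0.12. For Sall4 the female arrays were both above the male arrays, whether or not CreERT2 was present.

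Of the 3 genes often used as readouts of the network, Utf1, which encodes a chromatin-bound protein, read 11.55 and 11.36 in F and FC, and 11.60 and 11.47 in M and MC, and its CreERT2 differences of -0.19 and -0.13 made it the one gene of the 10 below 0 in both sexes. Dppa4, whose product binds chromatin together with that of Dppa2, read 10.41 and 10.47 in F and FC, and 10.16 and 10.32 in M and MC. Dppa5a, which encodes an RNA-binding protein with a KH domain, read 19.81 and 19.70 in F and FC, and 19.60 and 19.67 in M and MC. These values lay at the top of the scale, where the highest clusters of the 4 arrays read 19.69 to 19.85, so its small range is no measure of steadiness. The spread of differences among the 137 genes of like signal was narrow there, with an SD of 0.094 for FC minus F and 0.074 for MC minus M, against 0.442 and 0.309 near Nanog. A given log2 difference of Dppa5a is thus not comparable with that of a dimmer gene. Its M minus F difference of -0.21 lay outside the middle 95% of those genes, from -0.19 to 0.18, while its MC minus FC difference, which does not use F, was -0.03 and lay inside it.

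**Figure D2:**
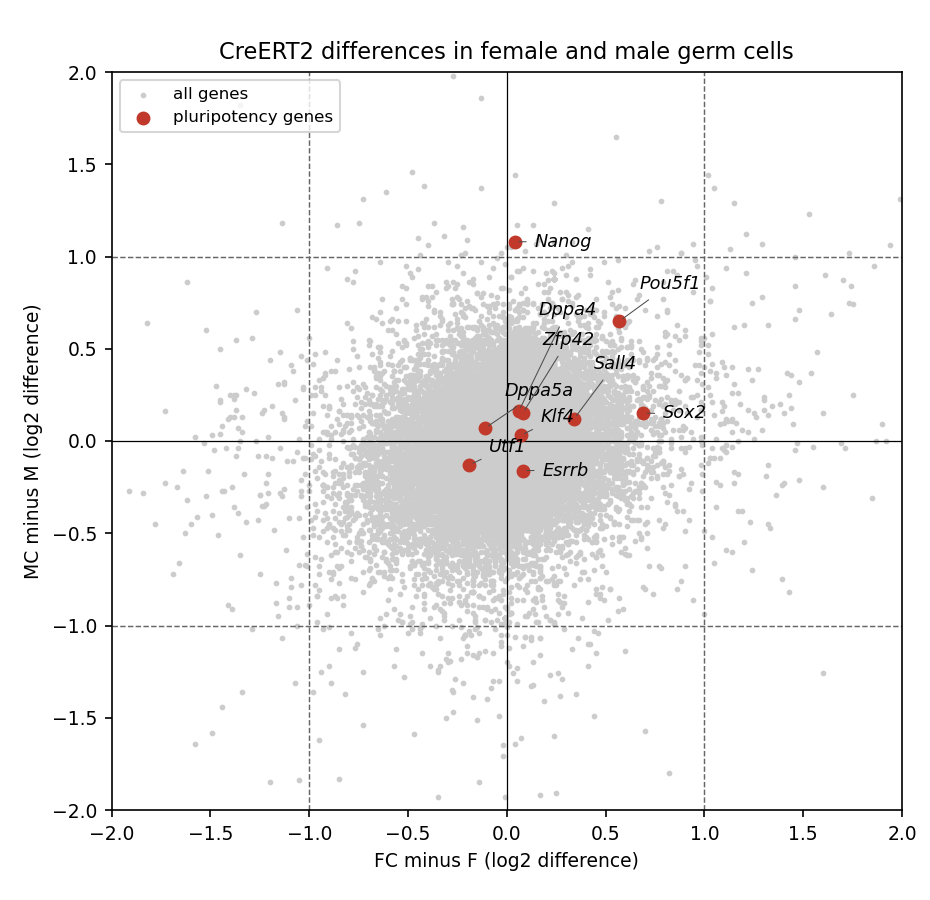
Log2 difference with CreERT2 in female (FC minus F, horizontal) and male germ cells (MC minus M, vertical) for all genes in grey and the 10 genes in red, with dashed lines at 2-fold and 42 genes beyond the axes. Nanog is past the line in male germ cells alone, at 1.08, Pou5f1 is at 0.57 and 0.65, and Sox2 is at 0.69 and 0.15.

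The sexes were then compared at each genotype. Male germ cells had the lower signal in both pairs of arrays for 7 of the 10 genes, as did 29.2% of all genes, and the higher signal in both pairs for 2, Zfp42 and Utf1. With median centring Utf1 was at -0.04 in M minus F and at 0 in MC minus FC. Dppa5a, one of the 7, was at -0.03 in MC minus FC and turned above 0 with quantile normalization (0.043) and cyclic loess (0.016). The median of M minus F was -0.23 and that of MC minus FC was -0.15, beside -0.01 and 0.02 over all genes. Over the 15374 genes of at least median signal, to which all 10 belong, the medians were -0.07 and -0.08. Of those genes 59.2% were below 0 in M minus F and 58.9% in MC minus FC. Sall4 had the largest sex difference, at -0.83 without and -1.05 with CreERT2. Both values lay within the middle 95% of genes of like signal, from -0.96 to 0.95 and from -1.24 to 0.96. So did the sex differences of the other genes, except that of Dppa5a in M minus F. Sall4 was the one gene of the 10 at least 2-fold lower in MC than FC, as were 1.42% of all genes. Its difference fell short of 2-fold with quantile normalization, at -0.99, and with cyclic loess, at -0.91. None was at least 2-fold lower in M than F (0.605% of all genes), and none was as much higher in either pair (0.729% and 0.979%). At 1.5-fold, Nanog and Sall4 were lower in M than F (3.46% of all genes), and Sox2 and Sall4 lower in MC than FC (5.24%).

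Pou5f1 had sex differences of -0.48 and -0.40 and Sox2 had -0.36 and -0.90. Zfp42 differed the other way, with 0.35 and 0.42. Nanog changed sign, from -0.69 without CreERT2 to 0.35 with it. Fitted over both genotypes with limma, the male minus female difference of Sall4 was -0.94 (SE 0.104, adjusted p = 0.326), that of Pou5f1 -0.44 (SE 0.085, adjusted p = 0.326), that of Sox2 -0.63 (SE 0.178, adjusted p = 0.361) and that of Zfp42 0.39 (SE 0.084, adjusted p = 0.331). These 4 had an unadjusted p under 0.05, as did 13.4% of all genes. No gene of the array passed an adjusted p of 0.05 for sex (0%) or for CreERT2 (0%), where 4109 and 2243 genes had an unadjusted p under 0.05. The fit has 1 residual degree of freedom, taken from how far the CreERT2 difference varied between the sexes. Its SEs and p-values therefore hold no replicate error.

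**Figure D3:**
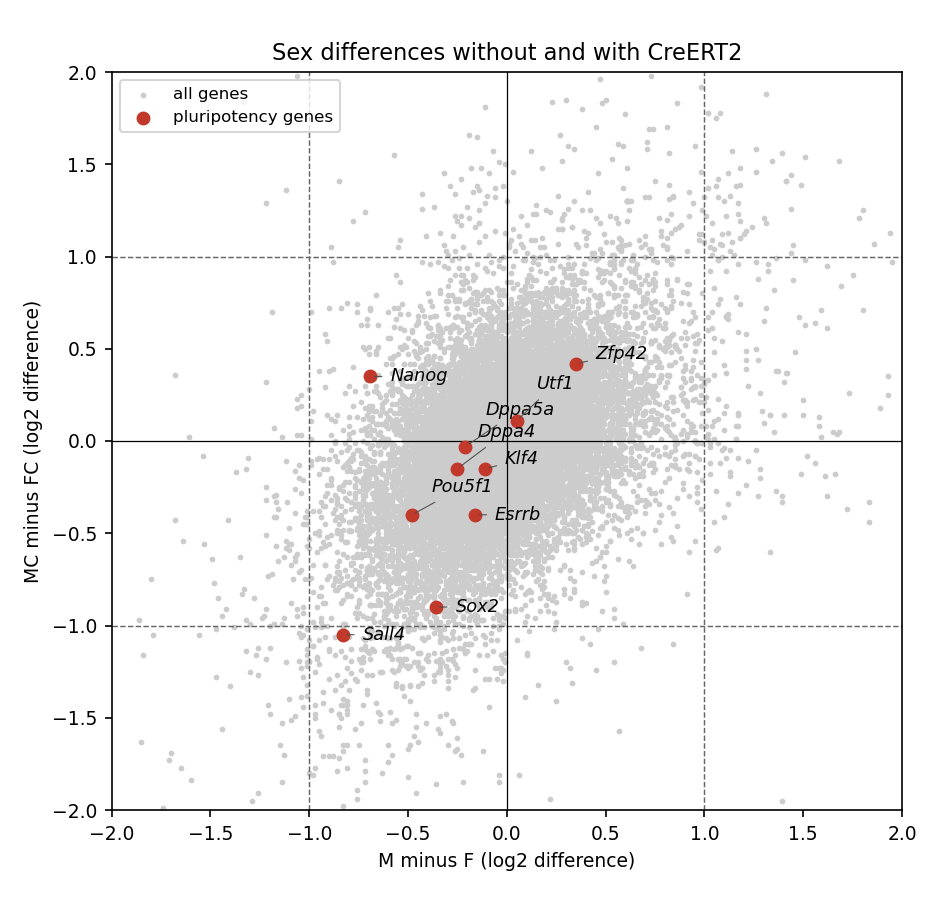
Log2 difference between male and female germ cells without CreERT2 (M minus F, horizontal) and with it (MC minus FC, vertical) for all genes in grey and the 10 genes in red, with dashed lines at 2-fold and 91 genes beyond the axes. Sall4 is low on both axes, at -0.83 and -1.05, Zfp42 is above 0 on both, and Nanog is at -0.69 and 0.35.

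Sall4 had the widest range over the 4 arrays, and the genes whose pattern was nearest to it were looked for among 15373 genes of at least median signal. Likeness was the Euclidean distance between the 4 log2 signals after each gene was centred on its mean. The nearest were Idh3g, a subunit gene of mitochondrial isocitrate dehydrogenase, at a distance of 0.064, the elongation factor gene Ell at 0.075 and Lhpp at 0.084. Rnf17, a tudor domain gene of germ cells, followed at 0.086 and Dnd1, an RNA-binding protein gene of germ cells, at 0.10. Dnd1 read 7.34 and 7.54 in F and FC, and 6.45 and 6.58 in M and MC. Each of the 5 was lower in male than in female germ cells at each genotype, which follows from their choice as nearest to Sall4.

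Other genes of the network gave mixed differences. Over all genes 47.5% had a positive FC minus F and 50.6% a positive MC minus M. Of 19 measured network partners of the naive state and of germ cells, 12 had a positive FC minus F and 5 a positive MC minus M, with medians of 0.15 and -0.07. Nr0b1, an orphan receptor of stem cells that gonadal somatic cells also express, was the one partner past 2-fold. It read 7.47 and 8.02 in F and FC, and 5.83 and 7.48 in M and MC. M was low, as for Nanog, and the male difference was 1.65. On the same pair of arrays 8 of 9 Leydig and interstitial markers were above 0, as were 50.6% of all genes. Their median was 0.31 and none reached 2-fold, with Cyp11a1, the first enzyme of steroid synthesis, at 0.95. Cyp11a1 read 7.03 and 6.78 in F and FC, and 5.66 and 6.61 in M and MC, so the male arrays were not the higher ones. Levels over the list ran from 3.81 to 9.76 in M and from 4.07 to 9.63 in MC. Amh, the hormone of Sertoli cells, was at 4.89 in M and 5.91 in MC. Of 12 Sertoli markers 9 were above 0 in MC minus M, and the list ran from 3.62 to 11.12 in M and from 4.01 to 12.63 in MC, with Cst9 at 1.51. In FC minus F 6 of the 12 were above 0, and Cst9 was at -2.07, with 6.21 in F and 4.14 in FC. Nr0b1 is itself on the list of 10 pregranulosa markers, of which 9 were above 0 in MC minus M, against 50.6% of all genes. The part of Leydig, interstitial, Sertoli and pregranulosa cells in the Nr0b1 or Nanog values was not tested. The brightest partners, Rif1, Mybl2, Tfcp2l1 and Klf5, had differences of -0.01, -0.09, 0.45 and 0.28 in female and of -0.39, -0.29, 0.16 and -0.63 in male germ cells.

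Of 25 measured effectors and targets of the network, 10 had a positive FC minus F and 15 a positive MC minus M. Over all genes the shares were 47.5% and 50.6%. The medians of the 25 were -0.04 and 0.09. Tet1, which encodes a 5-methylcytosine dioxygenase, was the one past 2-fold. It read 9.78 and 8.76 in F and FC, and 9.69 and 9.77 in M and MC, so that FC alone was low. The 4 brightest, Dppa3, Trim28, Epcam and Cdh1, had differences between -0.31 and 0.11 except for Cdh1, the E-cadherin gene, at -0.48 in male germ cells. Among the genes named after their values were seen, Dppa2, the partner of Dppa4, read 10.07 and 10.53 in F and FC, and 9.03 and 9.14 in M and MC. Fbxo15, a known target of OCT4 and SOX2, read 10.05 and 10.72 in F and FC, and 8.45 and 8.88 in M and MC. Both were more than 2-fold lower in male than in female germ cells at each genotype. The list as a whole was split, with 11 genes above and 13 below 0 in MC minus FC, against 52.2% and 45.9% of all genes. Tdgf1 (1.30), L1td1 (1.18) and Tet1 (1.01) were at least 2-fold higher there, as were 0.979% of all genes. Dppa2, Fbxo15 and Alpl (-1.22) were at least 2-fold lower there, as were 1.42%.

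Genes of the primed state and of early lineages were dim, with signals of 3.16 to 6.53 over the 4 arrays, and none of 17 reached 2-fold with CreERT2. At least 2-fold higher were 0.547% of all genes in FC and 0.224% in MC, and 0.508% and 0.475% were as much lower. The medians of the 17 were -0.02 for FC minus F and 0.02 for MC minus M. Of the 4 brightest of the 17, Gata6, an endoderm factor, was at -0.03 and 0 and Otx2, a factor of the primed epiblast, at -0.63 and 0.12. Dnmt3b, a DNA methyltransferase gene, was at -0.38 and -0.09 and Fgf5, a growth factor gene of the epiblast, at 0.21 and 0.20. Measured relatives of the 10 genes in the POU, SOX, KLF, ESRR, SALL, YY and DPPA families numbered 40. Of these, 11 had a positive FC minus F and 19 a positive MC minus M, against 47.5% and 50.6% of all genes. The medians of the 40 were -0.06 and -0.05. Klf6, at 10.42 and 12.02 in F and FC, and 10.09 and 9.84 in M and MC, was the one past 2-fold. The bright relatives Sox4 and Sox11, transcription factors of many progenitors, were at -0.45 and -0.06 in female and -0.24 and 0.21 in male germ cells.

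Genes of the germline and of meiosis were read on the same arrays, from a list chosen with earlier results of these data known. That their differences were larger than those of the pluripotency genes is therefore no result. FC was at least 2-fold above F for 9 of 10 such genes, namely Sycp3, Stra8, Meiosin, Hormad1, Sycp1, Taf7l, Mael, Slc25a31 and Ddx4. MC was so above M for the same genes without Stra8. Over all genes the shares were 0.547% and 0.224%, and nothing is read from the counts of a list so chosen. The medians were 2.27 and 1.29. Sycp3, of the synaptonemal complex, read 10.81 and 14.09 in F and FC, and 9.59 and 11.06 in M and MC. Mael, of the piRNA pathway, read 12.31 and 14.41 in F and FC, and 10.60 and 12.68 in M and MC. All 10 of these genes were lower in M than F and in MC than FC, as were 29.2% of all genes. Pou5f1 was higher with CreERT2 in both sexes by less than 2-fold, and none of the 10 pluripotency genes was lower by more than 0.19.

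**Figure D4:**
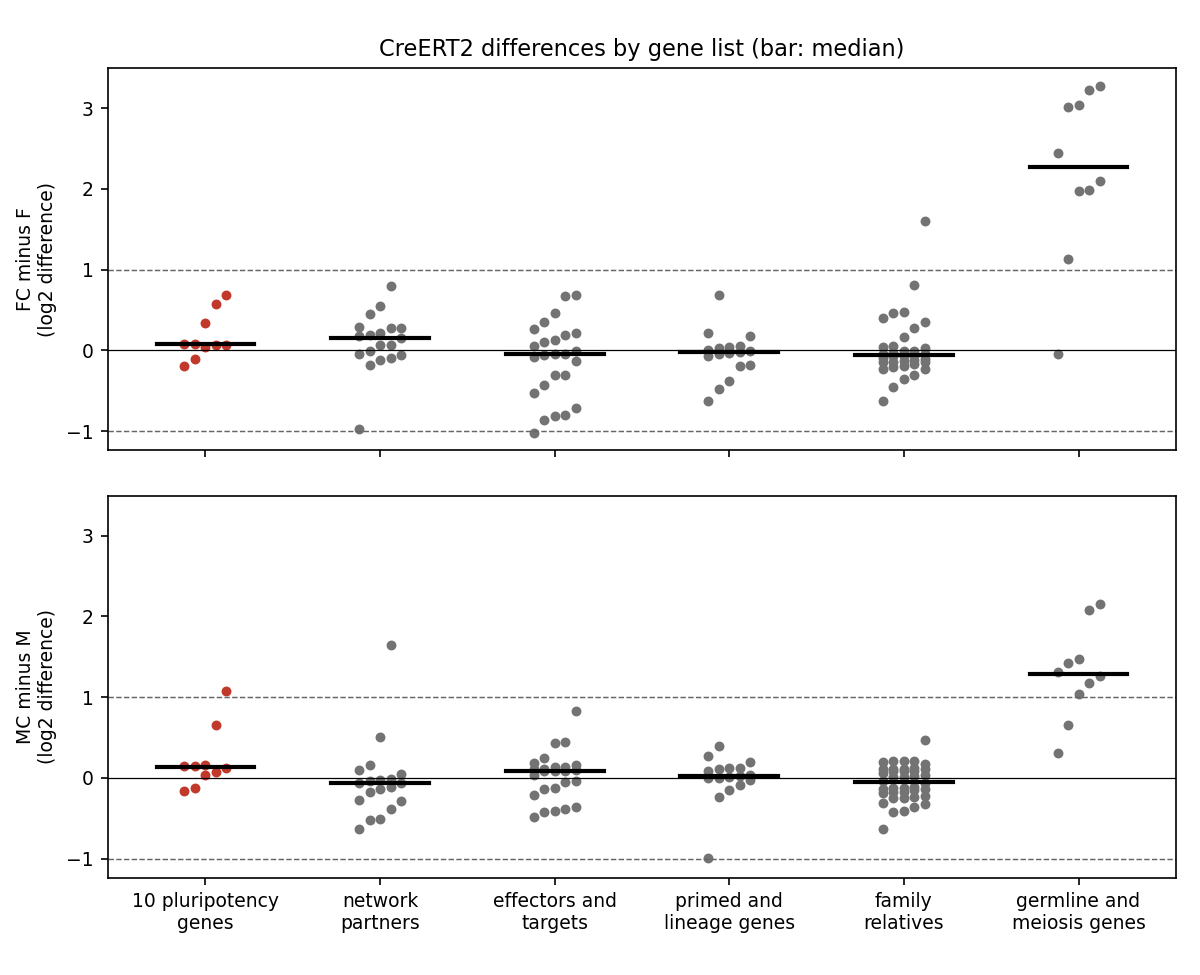
Log2 difference with CreERT2 (vertical axes, female above and male below) of each gene in the 10 pluripotency genes and 5 lists, with black bars for the medians and dashed lines at 2-fold. The medians of the first 5 columns lie between -0.07 and 0.15. Those of germline and meiosis genes, a list chosen with earlier results of these data known, are 2.27 and 1.29.

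Markers of other cells also differed between arrays. Over all genes 47.5% were above 0 in FC minus F and 50.6% in MC minus M. At least 2-fold higher were 0.547% in FC and 0.224% in MC, and 0.475% were as much lower in MC. Of 12 endothelial markers, 11 were below 0 in FC minus F, as were 50.1% of all genes. At least 2-fold lower were 4 (Cdh5, Kdr, Emcn and Cldn5), as were 0.508% of all genes. The median of the 12 was -0.56. Their signals ran from 3.43 to 9.35 in F and from 3.34 to 9.36 in FC. In MC minus M their median was -0.055 and none was 2-fold different. The keratin genes Krt8 and Krt18 were at least 2-fold higher in FC than F, at 1.33 and 1.48, and were at -0.47 and -0.21 in MC minus M. Of the 8 coelomic and mesonephric markers they belong to, 6 were above 0 in FC minus F and 3 in MC minus M, where Pax8 and Krt19 were at 1.07 and -1.57. Of 10 leukocyte and platelet markers, 3 were above 0 in FC minus F and 7 in MC minus M, where Pf4 and Ppbp were at -3.44 and -3.26. Of 7 erythroid markers, 3 and 5 were above 0, and Hbb-y was at -0.57 and -1.22. Foxl2, which defines pregranulosa cells, was at 2.98 to 3.04 on all 4 arrays, near the lowest signals of the table. Other pregranulosa markers were measured higher, Wnt4 at 6.16 to 6.38 and Fst at 5.46 to 6.36, and of the 10 on the list 8 were above 0 in FC minus F and 9 in MC minus M. The part of these cells in the values of Pou5f1, Sox2 and Nanog was not tested.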

How the data were processed

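Germ cells recovered by magnetic sorting were measured on 4 DNA microarrays. Log2 signals of 65956 transcript clusters were deposited, to 2 decimals. Per their methods the authors subtracted background and ran RMA (robust multiarray average) in R. In the submitters' processing notes Transcriptome Analysis Console is listed instead, which leaves the software unsettled, and the array named in the methods differs from the identifiers of the table. The genome build of the array is not given in the sources used here. The values were used as deposited, with 1 array for each of F, FC, M and MC.

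Clusters were named through the platform's annotation and RefSeq symbols of GRCm38.p6 (343 symbols updated). Of the clusters, 30638 carried 1 symbol, 654 carried several that stand for 1 gene, and 1522 carried several genes and were left unnamed. The other 33142 got no symbol from the annotation used here. Where a gene had several clusters, the brightest on average stood for it, which gave 30738 genes. Each of the 10 genes has 1 cluster.

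Differences of log2 signals were counted at 2-fold with no p-value. An additive fit of CreERT2 and sex over all genes used limma 3.58.1 in R 4.3.3 (lmFit and eBayes, Benjamini-Hochberg over all genes, two-sided, threshold 0.05, 1 residual degree of freedom). In simulated data with no sex effect, its pass condition was that median estimates lay near the set CreERT2 differences. Rates of false calls were not checked. Genes of like signal are those within 1 log2 unit of a gene's mean signal. Motifs were searched on both strands in RefSeq windows of 250 bases before to 50 after each start site. All 10 genes were named, with genes of other lists past 2-fold with CreERT2 in either sex, the 4 brightest of a list, and the 5 nearest in pattern to the gene of widest range. Members and lists were chosen with earlier results of these data known. The alternatives were quantile normalization, median centring, cyclic loess, the mean of a gene's clusters, a 1.5-fold threshold, a filter at the median signal and a trend in the variance prior. Python 3.11.15, numpy 2.4.6, pandas 2.3.3 and matplotlib 3.10.9 were used.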

Additional observations from a re-analysis of the deposited data

Results flagged for a closer look

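Nanog was lower in male than in female germ cells without CreERT2, at -0.69, and higher with it, at 0.35, so that the sex difference moved by 1.04 between the genotypes. Esrrb was higher with CreERT2 in female (0.08) and lower in male germ cells (-0.16), a difference of -0.24 between the sexes. Dppa5a was lower in female (-0.11) and higher in male germ cells (0.07), a difference of 0.18. Each is listed because the effect had opposite signs in the groups compared, with 1 array per condition, and none of these differences between groups was tested. The size for Esrrb and Dppa5a lay within the middle 95% of genes of like signal, from -0.76 to 0.74 and from -0.24 to 0.32, while that of Nanog lay outside its range of -0.85 to 0.88.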

How the results depend on the processing

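Under quantile normalization, median centring, cyclic loess and the mean of a gene's clusters, the median of the 10 genes stayed above 0 with CreERT2 in both sexes, from 0.045 to 0.20 in female and from 0.085 to 0.29 in male germ cells. The sex medians stayed below 0, from -0.32 to -0.22 without and from -0.26 to -0.098 with CreERT2. Nanog alone was at least 2-fold higher in MC under every scaling. The count at least 2-fold lower in MC than FC was 1 as deposited, 0 with quantile normalization and with cyclic loess, and 2 with median centring. With a threshold of 1.5-fold the counts became 1 higher in FC, 2 higher in MC, 2 lower in M than F and 2 lower in MC than FC. With median centring 1 gene in place of 2 was above 0 in M minus F. Small differences of Klf4, Utf1 and Dppa5a changed sign under 1 or more scalings. No gene was called for CreERT2 or sex with a trend in the prior, with quantile normalization or among genes of at least median signal. Limits: with 1 array per condition no replicate could be left out, and the F array could not be left out of the fit, which then has no residual degree of freedom. No paired analysis was possible because each condition has 1 array, so no replicate numbers are shared; the additive fit compares CreERT2 within each sex.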
